A study of Homo sapiens with 4 samples.

Results

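The mitosis and spindle checkpoint genes examined here are 36 listed genes that act from entry into mitosis to the separation of the daughter cells, with the kinesin motors left out. They were matched by symbol to the Ensembl identifiers of a table of 67008 genes, and each symbol had 1 identifier. All 36 had at least 1 read, and 35 passed the filter on low counts (edgeR's filterByExpr), as part of the 14303 genes that were tested. The measurement was RNA sequencing after a TruSeq RNA Exome capture of total RNA from SAS cells, a human line from a squamous carcinoma of the tongue, all virally infected. The control group (Ctrl) carried shLuc, an shRNA against luciferase, a gene that human cells lack, and the other group (shSTAU1) carried an shRNA against STAU1, a protein that binds double-stranded RNA. Each group had 2 libraries, numbered 1 and 2, and 1 shRNA per group, so an effect of that shRNA on other transcripts cannot be told apart from the loss of STAU1. The genotype is labelled WT in the libraries. The labels do not say whether the 2 libraries of a group came from separate cultures or what their number marks, so p-values measure the spread between these libraries, which may be technical.

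The library totals ran from 32206655 to 36301574 counts. STAU1 (ENSG00000124214, chr20:49113339-49188367 on the minus strand of GRCh38), which checks the labels, had 249 and 251 CPM (counts scaled to a common library size) in Ctrl and 41.6 and 41.5 CPM in shSTAU1, which is -2.59 on the log2 scale (standard error, SE, 0.13, adjusted p = 0.00103 by edgeR's quasi-likelihood test). A field of the labels also names the mouse fibroblast line C3H 10T1/2, so markers of epithelial cells and fibroblasts were compared. All 10 epithelial markers were above 1 CPM in at least 1 library, with a summed level of 14952 to 19730 CPM. By the same rule 3 of 10 fibroblast markers passed 1 CPM, with a summed level of 17.4 to 31.3 CPM, and 2 of the 10 were at 0 in every library.

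As background, cyclin B with CDK1 drives cells into mitosis, and PLK1 and the Aurora kinases organise the spindle and the centrosomes. The spindle checkpoint proteins gather at kinetochores that lack microtubules and hold back CDC20, the activator of the anaphase-promoting complex (APC/C), until every chromosome is attached. The APC/C then marks securin (PTTG1) and cyclin B for destruction, separase (ESPL1) cuts cohesin and the chromosomes part. Most of these genes are transcribed late in the cell cycle. The MuvB core, which binds a promoter element called CHR (TTTGAA, or more rarely TTCGAA), works as the DREAM repressor in resting cells and with MYBL2 and FOXM1 as an activator in dividing cells. Because the libraries came from bulk cells, a larger share of cells in mitosis and more RNA in each such cell cannot be told apart.

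Promoter sequences of these genes carried the CHR element more often than the promoters of all genes. RefSeq windows of GRCh38.p14, from 250 bases before to 50 bases after a start site, were at hand for 29 of the 36 genes and for 27305 genes in all. TPX2, BIRC5, BUB3, UBE2C, AURKA, TTK and FOXM1 had no window. On either strand, TTTGAA or TTCGAA was found in 21 of 29 members (72.4%) and in 19.5% of all genes with a window. TTTGAA alone was in 69.0% of members against 18.2% of all genes, and TTCGAA, which is its own reverse complement, in 10.3% against 1.82%. CCAAT, the word bound by NF-Y, was in 75.9% of members against 39.7%, and 58.6% of members held CCAAT together with either CHR word, against 7.85% of all genes. The E2F word TTCCCGC was in 6.9% of members and 7.82% of all genes. In 13 members (44.8%) a CHR word began within 40 bases before the start site, against 2.81% of all genes with a window, a distance that was chosen after the positions were seen. These matches are a description of letters, not of bound sites.

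The 110 bases before the start site are printed 5′ to 3′ for the 7 members with a window that differed between replicate numbers below, for MKI67, which had the highest level per length, and for MAD2L1, which differed between the groups, with CHR words and CCAAT on either strand (there read as TTCAAA and ATTGG) in capitals. The stretches are CDC20 at chr1:43358871-43358980, plus strand, CDCA8 at chr1:37692406-37692515, plus strand, PLK1 at chr16:23678779-23678888, plus strand, CENPA at chr2:26785946-26786055, plus strand, ANLN at chr7:36389752-36389861, plus strand, CCNB1 at chr5:69167040-69167149, plus strand, CENPI at chrX:101100948-101101057, plus strand, MKI67 at chr10:128126424-128126533, minus strand and MAD2L1 at chr4:120066849-120066958, minus strand.
CDC20: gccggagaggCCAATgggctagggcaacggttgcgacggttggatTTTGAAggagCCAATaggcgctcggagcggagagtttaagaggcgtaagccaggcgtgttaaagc
CDCA8: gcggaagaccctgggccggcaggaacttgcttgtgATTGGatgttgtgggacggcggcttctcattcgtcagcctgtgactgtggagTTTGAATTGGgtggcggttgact
PLK1: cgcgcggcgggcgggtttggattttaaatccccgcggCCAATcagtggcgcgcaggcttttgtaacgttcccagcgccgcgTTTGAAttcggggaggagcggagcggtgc
CENPA: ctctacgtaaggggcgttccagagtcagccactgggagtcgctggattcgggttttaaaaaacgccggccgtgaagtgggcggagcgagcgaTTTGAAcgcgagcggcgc
ANLN: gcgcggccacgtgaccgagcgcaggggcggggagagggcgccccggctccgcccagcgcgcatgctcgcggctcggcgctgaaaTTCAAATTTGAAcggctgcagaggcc
CCNB1: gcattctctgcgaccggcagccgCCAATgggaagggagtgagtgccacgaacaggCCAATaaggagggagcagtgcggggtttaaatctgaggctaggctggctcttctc
CENPI: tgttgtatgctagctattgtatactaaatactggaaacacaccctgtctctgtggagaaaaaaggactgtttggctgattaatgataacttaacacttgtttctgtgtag
MKI67: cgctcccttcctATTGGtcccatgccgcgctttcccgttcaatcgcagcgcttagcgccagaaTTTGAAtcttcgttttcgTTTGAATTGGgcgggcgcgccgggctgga
MAD2L1: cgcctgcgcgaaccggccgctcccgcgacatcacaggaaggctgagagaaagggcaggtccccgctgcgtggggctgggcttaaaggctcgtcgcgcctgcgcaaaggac
In CDC20 the CHR word TTTGAA lay between a pair of CCAAT words and began 65 bases before the start. In CDCA8 and MKI67 a CHR word ran into a CCAAT word on the opposite strand, so the words overlap there. CENPA, ANLN and PLK1 had TTTGAA from 18 to 29 bases before the start, and ANLN held it on both strands. In CCNB1 a pair of CCAAT words stood alone, and the printed stretches of CENPI and MAD2L1 held neither word. The stretches of CENPI, CENPA and PLK1 lie well inside the genes of GENCODE 29, which begin at chrX:101098218, chr2:26764289 and chr16:23677656. Whether the start sites used are the main ones in these cells was not tested. MAD2L1 had TTTGAA from base 25, counted from its start, and CCAAT on the opposite strand 229 bases before it, both outside the printed stretch.

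All measured levels per length differed widely among the 35 tested members. Divided by the length of the longest protein-coding transcript in GENCODE 29, in kilobases, the mean level over the libraries was highest for MKI67 (308 CPM per kb), the antigen Ki-67 that coats mitotic chromosomes. PTTG1 followed with 190 CPM per kb, AURKA with 173, TOP2A, the topoisomerase that untangles chromosomes, with 127, CCNB1 with 115, CDC20 with 111 and the spindle assembly factor TPX2 with 102 CPM per kb. SPC24, a subunit of the NDC80 kinetochore complex, had 3.97 CPM per kb, the lowest level apart from PRC1. PRC1 (ENSG00000198901), which bundles microtubules of the anaphase midzone, had 12 and 14 counts in Ctrl and 7 and 2 counts in shSTAU1, and passed the filter through its Ctrl libraries. In GENCODE 29, 58.4% of the exon bases of PRC1 are shared with other genes, 57.6% with AC068831.7 on the same strand and 7.3% with the antisense gene PRC1-AS1, so its counts are uncertain. SPC25 (ENSG00000152253), the partner of SPC24, had 0 counts in 3 libraries and 1 count in shSTAU1 replicate 2, and was not tested. It shares no exon base with another gene in that annotation. In all, 11 members share exon bases with another gene, and 5 share more than 10% of them.

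The comparison of shSTAU1 with Ctrl asks whether transcripts of the mitotic genes changed when STAU1 was depleted. Its fit held no term for the replicate number. MAD2L1 rose, and no other member passed the threshold (edgeR's quasi-likelihood test, Benjamini-Hochberg adjusted p under 0.05 over all tested genes). It was 1 of 35 members (2.86%), against 2.6% of all tested genes in either direction, 1.13% that rose and 1.48% that fell, so the share of called members was near the background. By sign alone 24 members were higher and 11 lower, or 24 and 10 without PRC1, which passed the filter through its Ctrl libraries. The median of their log2 fold changes was 0.10, and that of all tested genes was 0.0059. An unadjusted p under 0.05 was reached by 4 of 35 members (11.4%), fewer than the 24.5% of all tested genes. The groups did not overlap in 6 members with higher values in shSTAU1 (BUB3, MAD2L1, UBE2C, PTTG1, AURKB and INCENP). Without PRC1, 1 member, ESPL1, had lower values without overlap. Of all tested genes, 28.5% did not overlap with shSTAU1 higher and 28.0% with shSTAU1 lower. PRC1 was also lower without overlap, but its passing the filter through Ctrl favours that side, so it is not counted.

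**Figure D1:**
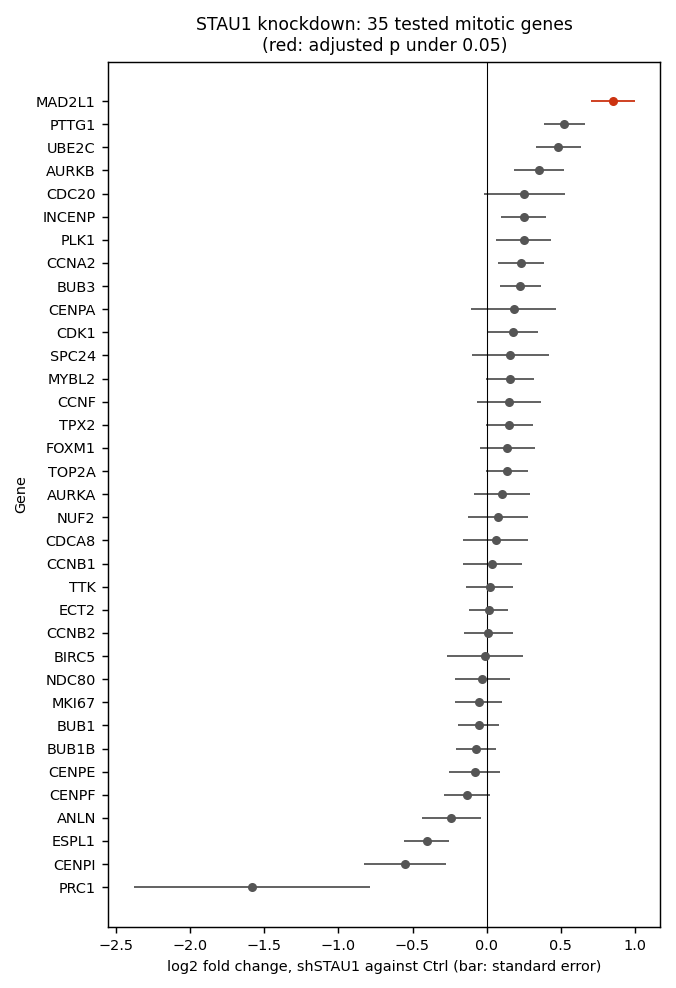
Log2 fold change of shSTAU1 against Ctrl for the 35 tested members, in order of size, with points for the estimate and bars for its SE (2 libraries per group). MAD2L1, at 0.85, is the member past an adjusted p of 0.05, ESPL1 and CENPI lie at -0.40 and -0.55, and PRC1, at -1.58, has a standard error (SE) of 0.80.

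MAD2L1 (ENSG00000164109, chr4:120055608-120067074 on the minus strand), the checkpoint protein Mad2 that binds and inhibits CDC20, had 29.1 and 27.4 CPM in Ctrl and 47.4 and 54.3 CPM in shSTAU1. Both shSTAU1 libraries were above both Ctrl libraries. The Ctrl libraries averaged 28.2 ± 1.19 CPM (SD, n = 2) and the shSTAU1 libraries 50.9 ± 4.88 CPM (SD, n = 2), a 1.80-fold rise, or 0.85 on the log2 scale (SE 0.15, adjusted p = 0.0366). It stayed between 0.73 and 0.95 when a library was left out. The call was lost without Ctrl replicate 1 (adjusted p = 0.106), without Ctrl replicate 2 (adjusted p = 0.146) and without a filter on low counts (adjusted p = 0.102). The other checkpoint genes had no such difference. BUB1B, the checkpoint kinase-like protein BubR1 and the member of this role with the highest level per length, had 312 and 313 CPM in Ctrl and 269 and 325 CPM in shSTAU1, so its groups overlapped. The log2 fold changes were -0.07 for BUB1B, -0.05 for the kinase BUB1, 0.02 for TTK, the kinase Mps1 that starts checkpoint signalling, and 0.23 for BUB3, which recruits both BUB proteins to kinetochores, with adjusted p from 0.349 to 0.954.

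Among the genes of anaphase and the APC/C, 3 of 4 had an unadjusted p under 0.05, as had 24.5% of all tested genes, and none passed the threshold. PTTG1, the securin that inhibits separase, had 176 and 158 CPM in Ctrl and 219.5 and 259.5 CPM in shSTAU1, without overlap, a log2 difference of 0.52 (SE 0.14, adjusted p = 0.0802), and was called by DESeq2 (adjusted p = 0.0259). UBE2C, the ubiquitin-conjugating enzyme that works with the APC/C, had 69.1 and 73.0 CPM in Ctrl and 88.1 and 110.5 CPM in shSTAU1, at 0.48 (SE 0.15, adjusted p = 0.112). ESPL1, the separase held by PTTG1, lay the other way. It had 66.8 and 73.2 CPM in Ctrl and 47.6 and 58.1 CPM in shSTAU1, without overlap, at -0.40 (SE 0.15, adjusted p = 0.161). CDC20 had 156 and 205 CPM in Ctrl and 151 and 278 CPM in shSTAU1. Its shSTAU1 libraries lay below and above both Ctrl libraries, and the log2 difference was 0.25 (SE 0.27, adjusted p = 0.605).

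**Figure D2:**
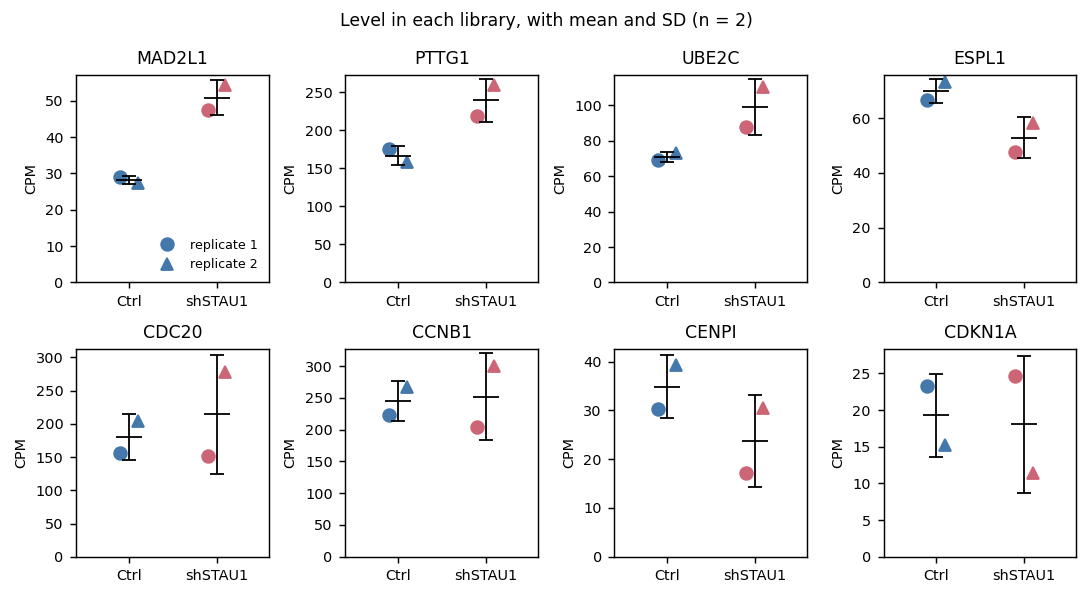
CPM in each of the 4 libraries (circles, replicate 1; triangles, replicate 2) with the mean and SD of each group (n = 2) for 7 members and for CDKN1A, the CDK inhibitor p21. MAD2L1 and PTTG1 are higher in both shSTAU1 libraries, while CDC20, CCNB1 and CENPI are higher and CDKN1A is lower in the library numbered 2 of each group.

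In the other roles no member passed the threshold between the groups. Among the cyclins and CDK1 all 5 log2 fold changes were above 0, from 0.01 for CCNB2 to 0.23 for CCNA2, the cyclin of S phase and early mitosis, which had 89.2 and 101 CPM in Ctrl and 99.0 and 124 CPM in shSTAU1. PLK1 had a log2 fold change of 0.25 and AURKA of 0.10 (adjusted p = 0.443 and 0.766). In the chromosomal passenger complex, which corrects faulty attachments, AURKB, its kinase, had 40.9 and 46.1 CPM in Ctrl and 48.6 and 62.4 CPM in shSTAU1, without overlap, at 0.35 (SE 0.17, adjusted p = 0.245). Its partners INCENP, CDCA8 and BIRC5 were at 0.25, 0.06 and -0.01. Of the 7 tested centromere and kinetochore genes 4 were lower. The largest of these differences was that of CENPI, a subunit of the inner kinetochore, with 30.2 and 39.4 CPM in Ctrl and 17.1 and 30.4 CPM in shSTAU1. Its groups overlapped between Ctrl replicate 1 and shSTAU1 replicate 2, and the log2 difference was -0.55 (SE 0.28, adjusted p = 0.262). Among the spindle and cytokinesis genes TPX2 was at 0.15, the RhoA activator ECT2 at 0.01 and the contractile ring scaffold ANLN at -0.24, and PRC1, at counts too low to rank, had an adjusted p of 0.265. TOP2A, MKI67 and the transcription factors FOXM1 and MYBL2 were between -0.05 and 0.16, with adjusted p from 0.585 to 0.866.

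The sign of the members as a whole depended on which libraries were set side by side. Between the libraries numbered 1 the median log2 difference was -0.09, with 11 of 35 members higher in shSTAU1. Between the libraries numbered 2 it was 0.24, with 30 of 35 higher. These 2 values were chosen after the data were seen and carry no test. With shSTAU1 replicate 2 left out of the fit the median was -0.20 and 7 members were higher, and with shSTAU1 replicate 1 left out it was 0.34 and 32 members were higher. The library of shSTAU1 numbered 2 held the highest CPM of the 4 libraries in 30 of 35 members (85.7%), against 27.5% of all tested genes, and that of shSTAU1 numbered 1 held the lowest in 23 (65.7%), against 24.4%.

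**Figure D3:**
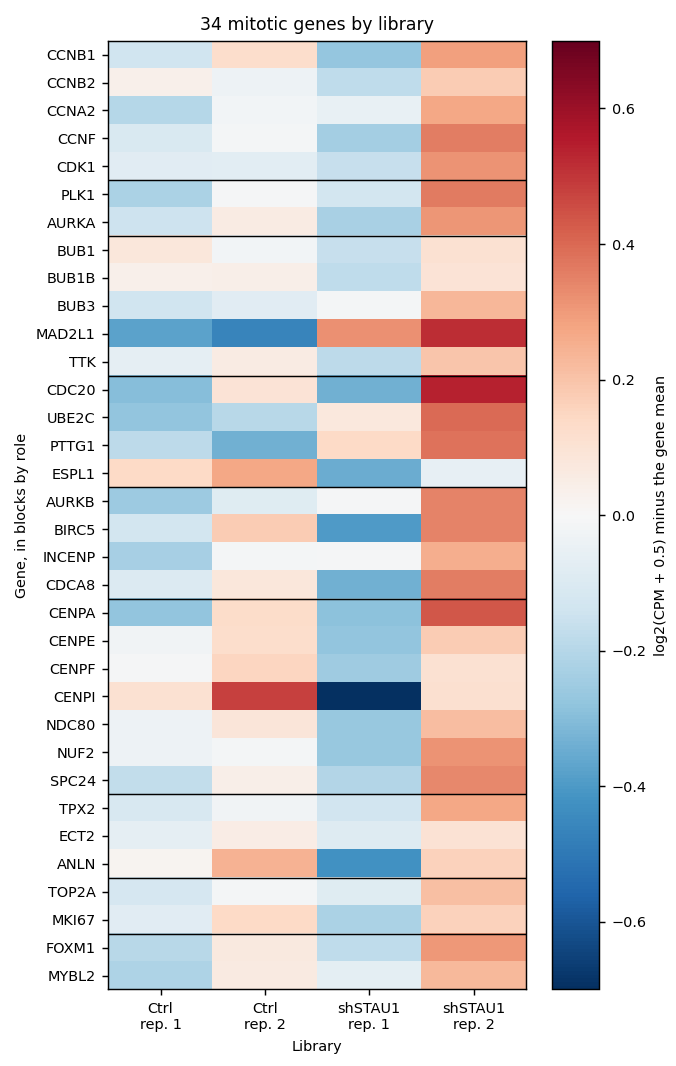
Log2(CPM + 0.5) of each tested member except PRC1 in each library, relative to the mean of that gene over the 4 libraries, in blocks by role. The column of shSTAU1 replicate 2 is mostly red and that of shSTAU1 replicate 1 mostly blue, while MAD2L1 is blue in both Ctrl libraries and red in both shSTAU1 libraries, and ESPL1 runs the other way.

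The comparison of the replicates set the libraries numbered 2 against those numbered 1 with the group held fixed (edgeR's quasi-likelihood test with additive terms for group and number). Nearly every mitotic gene was higher in the libraries numbered 2. The test called 10 of 35 members (28.6%) higher in the libraries numbered 2 and none lower, against 7.77% of all tested genes in either direction, 3.13% higher and 4.64% lower. By sign 34 of 35 members were higher, all but PRC1, with a median log2 difference of 0.27, where all tested genes had a median of -0.0007. An unadjusted p under 0.05 was reached by 23 of 35 members (65.7%), against 20.1% of all tested genes. Since this fit has a term more than that between the groups, the numbers of calls in the 2 comparisons are not set against each other. In both groups 30 of 35 members were higher in the library numbered 2, against 31.5% of all tested genes. The number of calls depends on the tool and the terms. DESeq2 called 1 member, CDC20, with 14 at an unadjusted p under 0.05, and the fit without a term for the group called none, with 3 members and 470 genes at an unadjusted p under 0.05 and no call among all tested genes.

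CDC20 (ENSG00000117399, chr1:43358955-43363203 on the plus strand) differed most. In the values above, the library numbered 2 was the higher one in Ctrl (156 and 205 CPM) and in shSTAU1 (151 and 278 CPM). The difference was 1.55-fold, a log2 difference of 0.64 (SE 0.11, adjusted p = 2.88e-06), and passed the threshold in every tool, scaling and filter tried except the fit without a group term. CCNB1, cyclin B1, had 223 and 268 CPM in Ctrl and 204 and 300.3 CPM in shSTAU1, at 0.41 (SE 0.11, adjusted p = 0.00637). AURKA, the kinase of the spindle poles, had 349 and 402 CPM in Ctrl and 329 and 478 CPM in shSTAU1, at 0.37 (SE 0.11, adjusted p = 0.0155). PLK1 had 69.1 and 80.3 CPM in Ctrl and 73.8 and 104 CPM in shSTAU1, at 0.36 (SE 0.12, adjusted p = 0.0427). In each of these genes both libraries numbered 2 were above both libraries numbered 1.

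In the chromosomal passenger complex 2 of 4 members were called higher, against 3.13% of all tested genes. All 4 were higher with an unadjusted p under 0.05. BIRC5, survivin, had 25.7 and 31.9 CPM in Ctrl and 21.2 and 36 CPM in shSTAU1, at 0.54 (SE 0.15, adjusted p = 0.00811). CDCA8, borealin, had 91.9 and 104 CPM in Ctrl and 77.8 and 126 CPM in shSTAU1, at 0.44 (SE 0.12, adjusted p = 0.00683). For both genes the shSTAU1 libraries were the lowest and the highest of the 4. AURKB and INCENP were at 0.27 and 0.24 and were not called (adjusted p = 0.219 and 0.230).

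All 7 tested centromere and kinetochore genes had higher values in the libraries numbered 2 of both groups. CENPI was higher in the library numbered 2 of each group, with the values given above, at 0.60 (SE 0.15, adjusted p = 0.00211). CENPA, the histone H3 variant that marks centromeres, had 10.4 and 13.9 CPM in Ctrl and 10.3 and 17.3 CPM in shSTAU1, at 0.59 (SE 0.19, adjusted p = 0.0305). The other 5, CENPE, CENPF, NDC80, NUF2 and SPC24, lay between 0.25 and 0.40, and none of them was called. Of the cytokinesis genes ANLN was called, with 429 and 501 CPM in Ctrl and 315 and 473 CPM in shSTAU1, at 0.41 (SE 0.11, adjusted p = 0.00637). FOXM1, the activator of late cell cycle genes, had 116 and 139 CPM in Ctrl and 117 and 163 CPM in shSTAU1, at 0.37 (SE 0.12, adjusted p = 0.0239). MYBL2 was at 0.29 (adjusted p = 0.119). MKI67, the most abundant member, had 3679 and 4275 CPM in Ctrl and 3329 and 4335 CPM in shSTAU1, at 0.30 (SE 0.10), and missed the threshold with an adjusted p of 0.0511, as did TOP2A at 0.20 (adjusted p = 0.283).

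The checkpoint genes differed least between the numbers. None of the 5 was called, and their median was 0.14, from 0.06 for MAD2L1 to 0.25 for TTK. TTK had 100 and 109 CPM in Ctrl and 92.0 and 119.7 CPM in shSTAU1. PTTG1 was at 0.05, the smallest difference of a member in size. MAD2L1 and PTTG1, which had the largest positive differences between the groups, thus had among the smallest between the numbers, while BIRC5, at -0.01 between the groups, was at 0.54 between the numbers. This is a description of 35 genes in the same 4 libraries, not a test.

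The difference between the numbers was larger in shSTAU1 than in Ctrl for 34 of 35 members, where this held for 7177 of all 14303 tested genes. The median over the members was 0.16 in Ctrl, with 31 members higher, and 0.38 in shSTAU1, with 34 higher. CDC20 was 0.40 higher in Ctrl and 0.88 higher in shSTAU1 on the log2 scale, and CDCA8 0.18 and 0.70. CCNB2, BUB1, MAD2L1 and PTTG1 were lower in the Ctrl library numbered 2 and higher in the shSTAU1 library numbered 2. With 1 library for each group and number, no spread is left to test this difference between the groups.

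**Figure D4:**
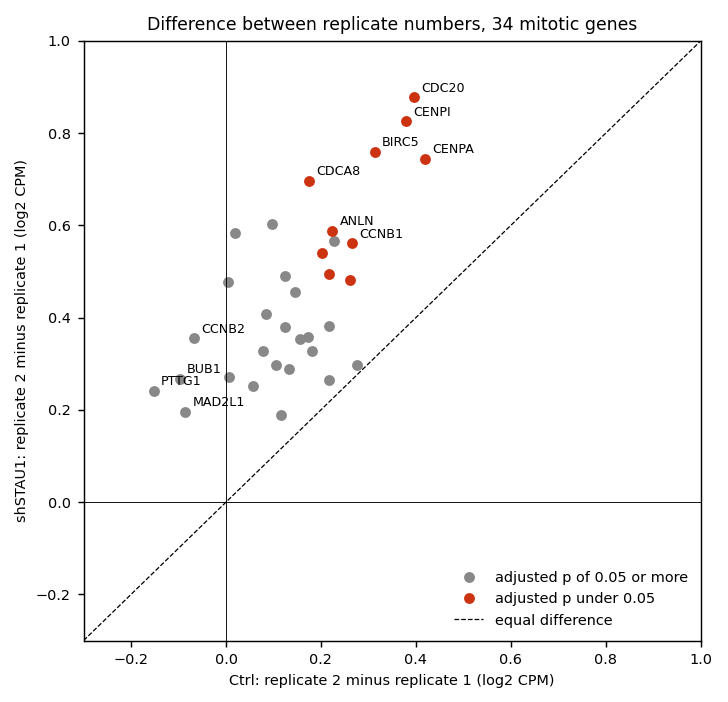
Log2 CPM of the library numbered 2 minus that numbered 1, within Ctrl (x axis) and within shSTAU1 (y axis), for the tested members except PRC1 (points, 1 gene each); red points had an adjusted p under 0.05 in the comparison of both groups together, and the dashed line marks equal differences. All 34 genes lie above the dashed line, and CDC20, at 0.40 and 0.88, is farthest up.

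Other genes moved with the number as well. Of the epithelial markers 5 of 10 were called lower in the libraries numbered 2, against 4.64% of all tested genes. These were CDH1, KRT14, KRT17, KRT19 and TP63, at log2 differences of -0.56, -0.69, -0.47, -0.89 and -0.43 (adjusted p from 1.05e-12 to 0.00441). The summed level of the list was 16689 and 14952 CPM in Ctrl and 19730 and 16108 CPM in shSTAU1. Both libraries numbered 2 were lower than the library numbered 1 of their group. Their part in the difference of the mitotic genes was not tested. Only 5 of the 10 fibroblast markers were tested. None of these 5 was called between the numbers, and 2 had an unadjusted p under 0.05. Between the groups 1 of 10 epithelial markers, the basal keratin KRT5, was called higher in shSTAU1, at 0.65 (adjusted p = 0.0408). The collagen gene COL1A1, 1 of 5 tested fibroblast markers, was called lower, at -1.35 (adjusted p = 0.0360). Of all tested genes 1.13% were called higher and 1.48% lower between the groups. The part of KRT5 and COL1A1 in the difference of MAD2L1 was not tested.

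Further genes of the mitotic machinery were read from 7 lists, of 159 genes in all, of which 154 were tested. Between the groups 4 of 154 rose and 1 fell (3.25% in all), near the 2.6% of all tested genes. These calls thus say nothing particular of the lists, and the genes are given as the ones that passed. Without a filter on low counts far fewer of all genes were called, as given below, and whether these calls held there is not given. UBE2S, which extends ubiquitin chains for the APC/C, had 11.4 and 13.9 CPM in Ctrl and 24.8 and 37.3 CPM in shSTAU1, at 1.29 (SE 0.24, adjusted p = 0.0382), 1 of 17 tested genes of the APC/C and its regulators. RAD21, the cohesin subunit that separase cuts, had 396 and 373 CPM in Ctrl and 611 and 626 CPM in shSTAU1, at 0.69 (SE 0.12, adjusted p = 0.0360), 1 of 23 cohesin and condensin genes. HAUS1, a subunit of the augmin complex that branches spindle microtubules, had 21.4 and 22.2 CPM in Ctrl and 38.7 and 43.0 CPM in shSTAU1, at 0.91 (SE 0.15, adjusted p = 0.0358), 1 of 30 genes of spindle assembly and cytokinesis. All 3 were without overlap between the groups, as were 28.5% of all tested genes with shSTAU1 higher. Their selection by the test between the groups favours this, so it adds no support. RAD21 and HAUS1 were not called when either Ctrl library was left out, nor was UBE2S without Ctrl replicate 1, while with a library left out RAD21 stayed between 0.64 and 0.72, HAUS1 between 0.81 and 0.98 and UBE2S between 0.95 and 1.56.

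The kinases of the G1 phase went apart. CDK4 had 157 and 174 CPM in Ctrl and 266 and 319 CPM in shSTAU1, at 0.82 (SE 0.14, adjusted p = 0.0360). CDK6, which pairs with the same cyclins, had 79.3 and 88.5 CPM in Ctrl and 37.8 and 49.2 CPM in shSTAU1, at -0.95 (SE 0.17, adjusted p = 0.0366). CDK4 was not called when either Ctrl library was left out, nor CDK6 without Ctrl replicate 2, with CDK4 between 0.67 and 0.95 and CDK6 between -1.17 and -0.77 when a library was left out. Their cyclin CCND2 was at -1.63 from 4.43 and 3.27 CPM in Ctrl and 1.09 and 1.39 CPM in shSTAU1 (adjusted p = 0.0574), and the CDK inhibitor CDKN2B, at about 1 CPM, at -1.06 (adjusted p = 0.220). In the other 3 lists no gene was called. The largest differences there were those of the kinetochore subunit CENPQ at 0.57 and the checkpoint partner MAD1L1, at under 1 CPM, at -0.77. The phosphatase subunits PPP1CC and PPP1CB were at 0.63 and 0.51. The DREAM members E2F5 and RBL1, the pocket protein p107, were at 1.86 and -0.60. The adjusted p of these genes ran from 0.0710 to 0.433. E2F5 had at most 3.87 CPM (before scaling) and shares 16.3% of its exon bases with C8orf59 on the opposite strand. C8orf59 had 1287 and 1264 counts in Ctrl and 2040 and 2014 in shSTAU1, so the counts of E2F5 are uncertain. STAG2, another cohesin subunit, was at 0.57 (adjusted p = 0.0559), the APC/C subunit CDC26 at 0.66 (adjusted p = 0.325) and NUSAP1, at under 1 CPM, at -1.30 (adjusted p = 0.269).

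Between the replicate numbers 18 of the 154 genes (11.7%) were called higher and 3 (1.95%) lower in the libraries numbered 2, against 3.13% and 4.64% of all tested genes. By sign 123 were higher, where 7136 of all 14303 tested genes were, with a median log2 difference of 0.17. The other centromere and kinetochore genes had 7 of 31 called, with a median of 0.26. Those with the largest differences were OIP5, a subunit of the complex that loads CENPA, at 0.72 (adjusted p = 0.0147), and SKA3, which couples kinetochores to microtubules, at 0.57 (adjusted p = 0.00112). Cohesin and condensin genes had 4 of 23 called, with a median of 0.21, led by the cohesin acetyltransferase ESCO2 at 0.61 and the cohesin subunit STAG1 at 0.54 (adjusted p = 0.000622 and 0.000181). In spindle assembly and cytokinesis 3 of 30 were called, with a median of 0.18 and with GTSE1, a microtubule-binding protein of G2 and mitosis, at 0.50 (adjusted p = 0.00619). Of the APC/C and its regulators none of 17 was called, with a median of 0.06, and UBE2S and CDC26 at 0.45 and 0.51 (adjusted p = 0.0651 and 0.452).

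Genes of entry into and exit from mitosis had 2 of 23 called higher, with the CDK-binding protein CKS2 at 0.47 (adjusted p = 0.0129), and 1 lower, the phosphatase CDC14A, at -0.59 (adjusted p = 0.0225), with a median of 0.11. In the DREAM and MuvB list 1 of 11 was called higher and 1 lower, with a median of 0.15. The lower one was RBL2, the pocket protein p130 of the DREAM repressor, with 75.5 and 66.3 CPM in Ctrl and 118 and 79.7 CPM in shSTAU1, at -0.38 (adjusted p = 0.0265), while TFDP2 was at -0.45 (adjusted p = 0.0597). In the list of CDK inhibitors and G1 regulators 1 of 19 was called higher and 1 lower, with a median of 0.27. By sign 14 of these 19 genes were higher, as were 7 of the 11 in the DREAM and MuvB list. The part of the called genes of both lists in the difference of the mitotic genes was not tested. CDKN1A, the CDK inhibitor p21, was the one called lower in the G1 list. It had 23.3 and 15.3 CPM in Ctrl and 24.7 and 11.4 CPM in shSTAU1, with both libraries numbered 2 below both numbered 1, at -0.86 (SE 0.17, adjusted p = 4.38e-05). CDKN2C, at 0.517 to 1.74 CPM, was at 0.80 (adjusted p = 0.431).

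**Figure D5:**
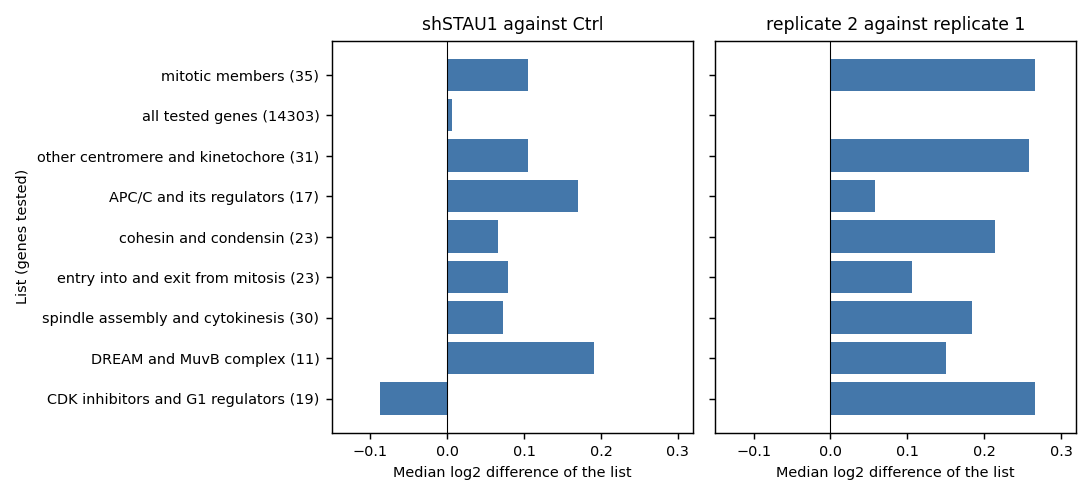
Median log2 difference of the tested genes in each list (number tested in parentheses), for shSTAU1 against Ctrl on the left and for replicate 2 against replicate 1 on the right; all tested genes are the baseline. The mitotic members are at 0.10 on the left and 0.27 on the right, and the G1 list is at -0.09 on the left and 0.27 on the right.

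A CHR word was about as frequent in called as in other members, but the called members with a window are too few to judge a separation. It was in the window of 5 of the 7 called members with a window (71.4%) and of 16 of the 22 others (72.7%). AURKA, BIRC5 and FOXM1 were also called and had no window. CCNB1 and CENPI were the called members whose window held neither TTTGAA nor TTCGAA, where the window of CENPI lies well inside the gene. The windows of MAD2L1 and MKI67, which were not called, held TTTGAA. These counts carry no test.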

How the data were processed

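The authors deposited whole-number read counts per gene, without normalization, for 4 libraries of SAS cells, and every sample column was mapped by its label. The submitters' processing notes name Partek and hg38. Which aligner, counter, strand option and annotation were used is not given in the sources used here. Positions, lengths, GC content and exon overlaps came from GENCODE 29 (GRCh38), which holds 58516 of the 67008 rows and 99.87% of the counts, and may not be the authors' release. Within a group, libraries differed beyond sampling noise, with a chi-square divided by its degrees of freedom of 23.4 in Ctrl and 56.4 in shSTAU1.

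Counts were filtered (filterByExpr, 14303 genes with 99.94% of the counts), scaled by TMM and tested in R 4.3.3 with edgeR 4.0.16 (quasi-likelihood, Benjamini-Hochberg adjustment over all tested genes, threshold 0.05). An exact permutation test of 2 against 2 libraries cannot give a p below 0.333. Within-group differences used log2 CPM with a prior count of 2. Tested on simulated data with 200 of the 14303 genes changed 3-fold, the group comparison recovered 99.5% with 6 false calls of 205, and the replicate comparison recovered 100% with 8 of 208. The simulated dispersion was 0.02, below that of the group fit, whose square root was 19.1%. The simulated group data held no difference between replicate numbers. A 3-fold change also exceeds the 1.80-fold rise of MAD2L1, so these shares are not the power to find differences of the members.

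The members, lists and promoter words were chosen with earlier results of these data known. Values in every library are given for called members and, in each role, for those with the highest level per length and the largest difference in either comparison. From the lists, genes called between the groups and up to 2 per list with the largest difference in each comparison are named. Alternatives were DESeq2 1.42.0, limma-voom (limma 3.58.1), scaling by library size, no filter, other thresholds, leaving out a library, a length and GC correction (99.0% of tested genes) and the replicate number as a block.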

Additional observations from a re-analysis of the deposited data

Results flagged for a closer look

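For 5 members the difference between the libraries numbered 2 and 1 had opposite signs in the 2 groups, and this difference between the groups was not tested. The log2 difference in shSTAU1 minus that in Ctrl was 0.42 for CCNB2 (0.36 and -0.07), 0.36 for BUB1 (0.27 and -0.10), 0.28 for MAD2L1 (0.20 and -0.09), 0.39 for PTTG1 (0.24 and -0.15) and -1.40 for PRC1 (-1.17 and 0.23), which had 2 to 14 counts per library.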

How the results depend on the processing

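Between the groups, the calls over all genes numbered 372 and those among the members 1. These became 1449 and 2 with DESeq2, 11 and 0 without a filter on low counts, where 3582 genes and 4 members had an unadjusted p under 0.05, 1585 and 2 at an adjusted p under 0.10, and 214 to 2625 and 0 to 6 with a library left out. The length and GC correction left 181 calls, and a fold change of 1.5 at an unadjusted p under 0.05 gave 2098. In the deposited counts the name of each library begins with its replicate number, so a shLuc and a shSTAU1 library share each first digit. No label says that these were prepared together. Adding the number to the group fit gave 4087 calls over all genes and 6 among the members. MAD2L1, PTTG1, UBE2C and AURKB were higher, and ESPL1 and CENPI lower. The square root of the dispersion was 12.5% in that fit and 19.1% without the number. The length and GC correction on top of this block left 3458 and 4 calls. The deviations of same-numbered libraries from their group means correlated at 0.27 over all tested genes and at 0.59 over the 4791 genes above a log2 CPM of 5.

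Members near 0 between the groups changed sign, at log2 values of -0.017 (CCNB1) and -0.035 (TTK) with library size, -0.080 (CCNB1), 0.054 (CENPE), 0.17 (MKI67), and -0.0037 (CENPA) under the length and GC correction, and -0.092 (CCNB1), -0.0068 (TTK), -0.0084 (CDCA8), 0.040 (CENPE), 0.15 (MKI67) and -0.023 (CENPA) with that correction and the block. With a library left out, the median of the members ran from -0.20 to 0.34, CCNB1 from -0.29 to 0.29, AURKA from -0.21 to 0.35, PLK1 from -0.038 to 0.48, BUB1B from -0.23 to 0.055, TTK from -0.20 to 0.20, CDC20 from -0.27 to 0.62, CDCA8 from -0.35 to 0.37, BIRC5 from -0.46 to 0.32, CENPE from -0.35 to 0.13, TPX2 from -0.086 to 0.34, MKI67 from -0.28 to 0.12, TOP2A from -0.040 to 0.28, MYBL2 from -0.019 to 0.30, FOXM1 from -0.14 to 0.36, CENPA from -0.26 to 0.51 and ANLN from -0.58 to 0.024. A group left with 1 library was assumed to vary like the other.

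Between the replicate numbers, the 1112 calls over all genes and 10 among the members became 612 and 5 with library size, 249 and 1 with DESeq2, 671 and 6 after correction for length and GC, and 0 and 0 without a group term, where the group differences add to the spread. Under these 4 alternatives each named gene kept its sign in this comparison. Of the 795 values of named genes under alternatives, 585 kept their direction and side of the threshold or moved by less than the spread. The causes of these changes were not tested. With 2 libraries per group, differences of the size of the spread between libraries were not detectable.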

Other observations

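Of the 36 members and 159 further genes, 11 had less than 1 CPM (before scaling) in each library, among them genes that dividing cells use. SPC25 had 1 count in all 4 libraries together, and the kinetochore gene SKA1, the CDK inhibitor CDKN1C and the activator E2F2 had none. NUSAP1, a spindle protein, had 21 and 12 counts in Ctrl and 7 and 7 in shSTAU1, and shares 62.2% of its exon bases with AC087721.2 on the same strand in GENCODE 29. LIN37, of the MuvB core, had 0 to 7 counts and shares 54.0% of its exon bases with other genes, HAUS7 had 2 to 5 counts and shares 35.6%, and PMF1 had 11 to 21 counts and shares 23.3%. SPC25, SKA1, MAD1L1, CDKN1C, CDKN2D and E2F2 share none. The choice of these genes rests on their values.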
